A study of Arabidopsis thaliana with 8 samples.

Results

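The genes described here are the autophagy-related (ATG) genes of Arabidopsis thaliana: rows on chromosomes 1 to 5 of the deposited gene table whose closest protein match is called an autophagy-related protein, or whose symbol starts with ATG or APG and a digit. The rule found 40 of 32833 genes. RNA was sequenced from seedlings of 3 groups: the wild type Col-0 (WT, 3 libraries), and rli2 RNAi line 5 (2 libraries) and line 12 (3 libraries), in which RNA interference is directed at RLI2, the ribosome recycling factor that the table names ABCE2. All groups had 3 days of cold (4 °C) and then 7 days of growth on plates at 22 °C under a photoperiod of 16 h. The labels name no promoter for the RNAi construct and do not say whether replicates came from separate plates, so each p-value reflects only how far these libraries scatter, possibly for technical reasons.

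ABCE2 had 57.5, 57.8 and 58.6 FPKM (fragments per kilobase, scaled to library size) in WT, 25 and 26.4 in line 5, and 26.7, 26.4 and 23.3 in line 12. Both lines were knocked down to a like degree, with means of 44.3% and 44.0% of WT. The share of ribosomal RNA genes was taken from FPKM multiplied by gene length, which estimates their share of fragments. It was 0.161% to 0.468% in 5 libraries, 2.18% in line 5 replicate 2, 2.34% in line 12 replicate 2 and 7.60% in line 12 replicate 3. The leaf genes LHCB1.3 and RBCS1A were abundant in all libraries, at 6285 FPKM or more, but moved in opposite directions: RBCS1A was lower in line 5 (log2 change -0.27, limma adjusted p = 0.0363) and line 12 (-0.54, adjusted p = 0.000768), and LHCB1.3 was higher in line 5 (0.44, adjusted p = 0.00667). Of 4 root markers, PYK10 was lower in both lines, CASP1 was lower in line 5 and RHD6 was too low to test. COBL9 was also called lower in both, but it had only 1.05 to 2.15 FPKM in WT. It reached 1 FPKM, the level needed for testing, in no RNAi library, so that call is tied to the filter. PYK10 fell from a mean of 1582 FPKM in WT to 805 in line 5 and 810.4 in line 12, and SEN1, a gene known for its induction in darkness and senescence, rose from 37.2 to 224.6 and 283.4. Of the other senescence markers, SAG13 had means of 12.1, 5.27 and 5.92 FPKM in WT, line 5 and line 12 and was not called, and the late protease gene SAG12 was listed at 0 in all 8 libraries. In whole seedlings, fewer cells of a type and less RNA per cell cannot be told apart, and the part of organ makeup in the changes below was not tested.

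Autophagy delivers cytoplasm to the vacuole for breakdown. An initiation kinase (ATG1, ATG13, ATG11, ATG101) starts it, a lipid kinase complex with ATG6 marks the membrane, ATG9, ATG2 and ATG18 proteins supply lipid, and a pair of ubiquitin-like systems attaches ATG12 to ATG5 and ATG8 to a membrane lipid. ATG8 then lines the autophagosome and holds the cargo receptors. In plants the pathway is known for recycling nutrients in darkness, starvation and senescence, and many ATG transcripts are known to rise then.

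Of the 40 genes, 35 have a role in that scheme by their locus. The other 5 do not. AT2G47720 is a short gene model that resembles ATG18A and was listed at 0 in all libraries. It shares 516 bases with GSTF8 on the same strand, whose means were 73.5, 142.5 and 111.1 FPKM in WT, line 5 and line 12. Whether its reads were given to GSTF8 was not tested. The remaining 4 carry only a look-alike symbol: the table's ATG1 at AT3G51790 matches a cytochrome c maturation protein, its ATG2 at AT3G51800 is EBP1 (an ErbB-3 binding protein homologue), APG3 at AT3G62910 is a chloroplast peptide chain release factor, and ATG2484-1 at AT4G17330 encodes an Agenet domain protein. They are described last. ATG18E was also listed at 0 throughout, so 38 of the 40 genes reached 1 FPKM in at least 2 libraries and were tested.

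Genes of the pathway that changed in the RNAi lines mostly rose. In line 5, 17 of the 38 tested genes were higher than in WT and 3 lower (limma adjusted p under 0.05). That is 44.7% higher and 7.89% lower, against 22.2% higher and 22.3% lower among all 19395 genes tested, of which 44.6% changed in either direction. In line 12, 22 were higher and 4 lower, or 57.9% and 10.5%, beside 28.3% and 27.7% of all genes and 56% in either direction. The median log2 change was 0.22 in line 5 and 0.29 in line 12, while the median over all genes was -0.00863 and -0.00239. Among all genes the calls were split evenly between higher and lower, and among the members higher calls outnumbered lower ones. Among the 34 tested genes with a role in autophagy, 17 were higher and 1 lower in line 5, and 22 were higher and 1 lower in line 12. Both comparisons use the same 3 WT libraries. With both lines averaged, 21 of 38 were higher and 4 lower, against 28.1% higher and 28.1% lower of all genes (56.1% in all).

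The line 5 count depended on single libraries. It was 10 without WT replicate 1, where 36.8% of all genes were called, against 44.6% in the full fit. Leaving out either line 5 library leaves that line with 1 library. The count and the share of all genes called were both lower there too. The line 5 values below rest on 2 libraries, and the cause of the losses was not tested. The line 12 count stayed between 20 and 24 when any 1 WT or line 12 library was left out. In those fits 48.7% to 52.7% of all genes were called, against 56% in the full fit.

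**Figure D1:**
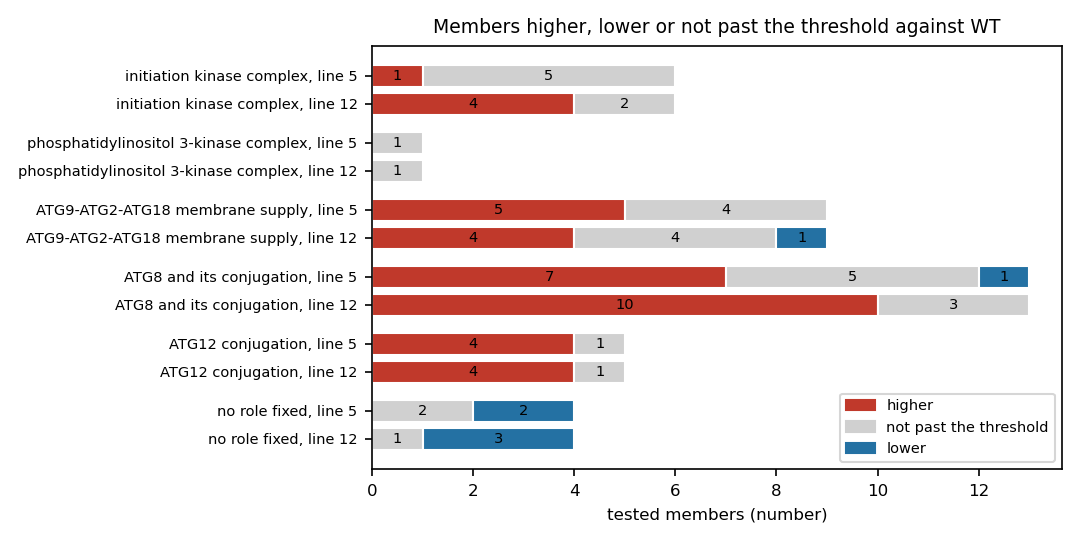
Number of tested members (x axis) in each role group that were higher, lower or not past the threshold of a limma adjusted p of 0.05 against WT, for line 5 and line 12. Higher calls make up most of the bars of both conjugation systems. They are 7 and 10 of 13 for ATG8 and its conjugation (53.8% and 76.9%), and 4 of 5 for ATG12 in both lines (80%). Among all genes tested, 22.2% were higher in line 5 and 28.3% in line 12. The bars of ATG6 and of the genes with no role fixed hold no higher calls.

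The clearest member was ATG8E, a gene of the ubiquitin-like ATG8 family, at chromosome 2, 18624264 to 18625791, on the plus strand (TAIR10 coordinates, the same in RefSeq TAIR10.1). Its level was 45.1, 46.2 and 52.5 FPKM in WT, 75.7 and 65.9 in line 5, and 93.2, 99.8 and 99.3 in line 12. No group overlapped another, and the order was WT, line 5, line 12. The mean rose 1.48-fold in line 5 (log2 change 0.55 ± 0.09 SE, limma adjusted p = 0.00168) and 2.03-fold for line 12 (1.01 ± 0.08 SE, adjusted p = 3.22e-05), the largest change of any member against WT in line 12. Line 12 was also above line 5 (log2 difference 0.46, SE 0.09, adjusted p = 0.0110), a call that was lost without line 5 replicate 2 (adjusted p = 0.0869).

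ATG8F had the highest WT level of the family, 41.7, 56.2 and 55.2 FPKM, against 67.3 and 90.6 in line 5 and 68.7, 87.6 and 63.1 in line 12. Every RNAi library was above every WT library, yet the RNAi libraries scattered widely. Line 5 differed from WT by a log2 change of 0.62 ± 0.19 (SE, limma adjusted p = 0.0322), and line 12 by 0.51 ± 0.17 (SE, adjusted p = 0.0349). The line 5 value dropped to 0.40 (adjusted p = 0.201) without line 5 replicate 2 and was not past the threshold without WT replicate 1 (0.0839); in line 12 the call was lost without replicate 1 (0.0565), replicate 2 (0.101) or WT replicate 1 (0.109).

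ATG8B, ATG8G and ATG8I also rose in both lines. ATG8B had 15.7, 14.7 and 19.5 FPKM in WT, 21.1 and 23.3 in line 5, and 25.4, 28.9 and 29.8 in line 12. Its groups were in the same order as for ATG8E and did not overlap (log2 changes 0.41 and 0.73, limma adjusted p = 0.0292 and 0.000907). ATG8G, a less abundant member, had 7.34, 6.65 and 7.33 FPKM in WT, 10.3 and 8.60 in line 5, and 9.90, 12.2 and 11.4 in line 12. Both lines were above WT and overlapped each other (0.36 and 0.58, adjusted p = 0.0267 and 0.00145). ATG8I was the steadiest, with 34.1, 32.9 and 33.8 FPKM in WT, 40.3 and 38.3 in line 5, and 42.4, 42.5 and 43.4 in line 12. Its change was small and exceeded a spread that was smaller still (0.22, SE 0.05, and 0.34, SE 0.05, adjusted p = 0.00941 and 0.000472). Without line 5 replicate 1 the line 5 adjusted p was 0.0706 for ATG8B, 0.190 for ATG8G and 0.0753 for ATG8I. ATG8B also lost its line 5 call without line 5 replicate 2 (0.146), WT replicate 1 (0.0804) or WT replicate 2 (0.0803), and ATG8G without WT replicate 1 (0.0512) or WT replicate 2 (0.0770).

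ATG8A, ATG8C and ATG8D passed the threshold against WT in line 12 and not in line 5. ATG8A had 31.9, 39.0 and 33.2 FPKM in WT, 37.3 and 36.2 in line 5, and 44.3, 51.1 and 56.5 in line 12. Line 5 lay within the WT range and line 12 above it (log2 changes 0.08 and 0.53, limma adjusted p = 0.580 and 0.00330). With the 3 libraries above 2% ribosomal RNA left out, the line 12 change was 0.35 and not past the threshold (0.0941). ATG8D had 5.85, 8.56 and 7.31 FPKM in WT, 8.53 and 8.72 in line 5, and 12.8, 11.6 and 12.4 in line 12. Again line 12 stood above both other groups, which overlapped (0.24 and 0.70, adjusted p = 0.172 and 0.00147). ATG8C had 19.7, 22.0 and 22.6 FPKM in WT, 26.3 and 19.8 in line 5, and 27.1, 27.1 and 28.2 in line 12. Line 5 had 1 library above the WT range and 1 within it (0.09 and 0.35, adjusted p = 0.555 and 0.0208), and the line 12 call was lost without line 12 replicate 3 (0.0599) or WT replicate 1 (0.0714). The difference between the lines was called for ATG8A (0.45, adjusted p = 0.0342) and ATG8D (0.46, adjusted p = 0.0442) and not for ATG8C (0.26, adjusted p = 0.157, or 0.0278 without line 5 replicate 1). Leaving out 1 library at a time ended the call between the lines in 4 of 8 fits for ATG8A (adjusted p up to 0.166) and in 6 of 8 for ATG8D (up to 0.166).

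ATG8H was the only ATG8 member with lower means in both lines. Its level was 19.9, 18.4 and 17.7 FPKM in WT, 13.9 and 14.6 in line 5, and 18.1, 13.6 and 17.2 in line 12. Line 5 lay below WT, and line 12 overlapped both. Line 5 differed from WT by a log2 change of -0.36 ± 0.12 (SE, limma adjusted p = 0.0342), and line 12 by -0.19 ± 0.10 (SE, adjusted p = 0.148). The line 5 call was lost without line 5 replicate 1 (0.154), line 5 replicate 2 (0.0903), WT replicate 1 (0.0955) or WT replicate 2 (0.0706).

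**Figure D2:**
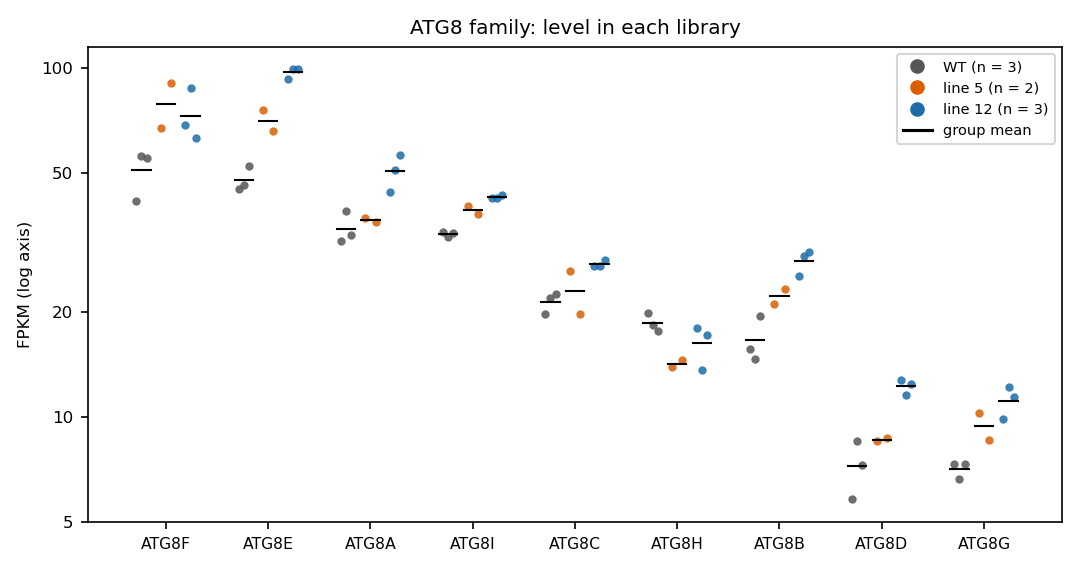
Level of each ATG8 gene in each library (FPKM, log axis), with genes ordered by their WT mean. Points are libraries of WT (n = 3), line 5 (n = 2) and line 12 (n = 3), and bars are group means. ATG8E climbs from 48.0 to 70.8 and 97.4 FPKM, whereas ATG8H goes from 18.7 to 14.3 and 16.3.

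The sum over the 9 ATG8 genes was 238.3 ± 14.9 FPKM in WT (SD, n = 3), 300.8 and 305.8 in the line 5 libraries, and 359.2 ± 16.4 in line 12 (SD, n = 3). Relative to WT the sums were 127% and 151%. The makeup shifted with them. ATG8E gave 20.1% of the family's FPKM in WT (18.9% to 21.1%), 23.4% in line 5 (21.5% to 25.2%) and 27.1% in line 12 (26.6% to 27.5%). ATG8H gave 7.87% in WT (7.11% to 8.99%), 4.70% in line 5 and 4.56% in line 12, below every WT library in each RNAi library.

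The family members differ where the protein is processed. ATG4 proteases cut ATG8 after a conserved glycine near its end, which exposes that glycine for attachment to the lipid. The last coding bases of 5 members (RefSeq TAIR10.1, coding strand, 5′ to 3′, with the codon of that glycine in capitals and the stop codon last) are shown because ATG8H, the member that fell in line 5, and ATG8I end directly at it.
ATG8E: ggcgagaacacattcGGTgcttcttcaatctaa
ATG8F: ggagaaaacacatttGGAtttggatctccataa
ATG8A: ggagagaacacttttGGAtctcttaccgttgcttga
ATG8H: accgagaaaactttcGGCtaa
ATG8I: agtgagaaaacctttGGTtga
The last base of the stop codon lies at chromosome 2, 18625526 (ATG8E), chromosome 4, 9306882 (ATG8F) and 11656809 (ATG8A), and chromosome 3, 1955219 (ATG8H) and 5274075 (ATG8I). ATG8E and ATG8F have 4 codons after the glycine, ATG8A has 5, and ATG8H and ATG8I have 0. The predicted proteins of ATG8H and ATG8I were identical at 68.7% of 115 aligned positions, and ATG8A and ATG8B at 87.7% of 122. ATG8I rose in both lines and ATG8H did not, and a link between this ending and transcript level was not tested. All 50-base words of the ATG8 exons occur once in the nuclear chromosomes, so reads of that length would not be split between these genes.

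Among the enzymes that act on ATG8, ATG3 and ATG4A rose and ATG7 and ATG4B did not pass the test. ATG3, the E2-like enzyme that transfers ATG8 to the lipid, had 30.1, 29.9 and 28.7 FPKM in WT, 37.5 and 34.3 in line 5, and 40.8, 42.2 and 41.3 in line 12. Its 3 groups were apart, in the order of ATG8E (log2 changes 0.27 and 0.47, SE 0.06 and 0.05, limma adjusted p = 0.00716 and 0.000182). The line 5 call was lost without line 5 replicate 1 (0.0624). ATG4A, a cysteine protease that cuts ATG8, had 7.78, 8.27 and 8.26 FPKM in WT, 11.2 and 9.18 in line 5, and 10.9, 11.7 and 11.0 in line 12. Both lines were above WT (0.29 and 0.42, adjusted p = 0.0287 and 0.00273), but the line 5 change was 0.16 (adjusted p = 0.205) without line 5 replicate 1 and was also not past the threshold without WT replicate 1 (0.0801), 2 (0.0572) or 3 (0.0523). ATG4A shares 1445 bases with AT2G44130 on the opposite strand, which itself had means of 11.4, 19.5 and 19.1 FPKM in the 3 groups. The sources used here do not say whether counting used strand, so reads of the 2 genes cannot be told apart there. ATG7, the E1-like enzyme that serves both conjugation systems, had means of 6.68, 6.09 and 6.71 FPKM in WT, line 5 and line 12 (adjusted p = 0.250 and 0.943). ATG4B had means of 13.8, 13.1 and 14.9 FPKM (adjusted p = 0.554 and 0.326).

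In the ATG12 system, 4 of 5 genes rose in each line, or 80%, beside 22.2% and 28.3% of all genes, with a median log2 change of 0.32 in line 5 and 0.35 in line 12. ATG10, the E2-like enzyme for ATG12, had 2.48, 2.59 and 2.44 FPKM in WT, 3.36 and 3.34 in line 5, and 3.98, 3.67 and 4.36 in line 12. Its levels were low and the groups well apart (log2 changes 0.31 and 0.51, limma adjusted p = 0.0217 and 0.000957). ATG5, the protein to which ATG12 is attached, had 7.01, 6.98 and 8.07 FPKM in WT, 9.23 and 9.54 in line 5, and 10.1, 10.2 and 9.01 in line 12. All RNAi libraries were above WT, with the lines overlapping (0.32 and 0.37, adjusted p = 0.0198 and 0.00467). ATG16, which binds ATG5 and places ATG8 attachment on the membrane, had 9.67, 8.67 and 9.71 FPKM in WT, 12.3 and 11.8 in line 5, and 12.8, 11.3 and 12.4 in line 12. Its pattern was the same as that of ATG5 (0.33 and 0.35, adjusted p = 0.0104 and 0.00386).

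ATG12A rose from a mean of 13.7 FPKM to 17.6 in line 5 and 16.4 in line 12 (log2 changes 0.33 and 0.24, limma adjusted p = 0.00387 and 0.00764). The second ATG12 gene, ATG12B, went from 4.71 to 5.23 and 5.30 FPKM and did not pass the test (0.13 and 0.14, adjusted p = 0.387 and 0.257). Of the 4 line 5 calls, that of ATG12A held without each library in turn. The others were lost without line 5 replicate 1, at adjusted p = 0.0967 for ATG10, 0.0727 for ATG5 and 0.0690 for ATG16. ATG10 was also lost without line 5 replicate 2 (0.0811), WT replicate 1 (0.0562) or 3 (0.0533), and ATG5 without line 5 replicate 2 (0.0921), WT replicate 1 (0.0599) or 2 (0.0598). The 4 line 12 calls held without each library in turn. ATG5 shares 597 bases with AT5G17280 on the opposite strand, whose means were 28.1, 30.6 and 45.2 FPKM.

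Of the 6 initiation kinase genes, 1 was higher in line 5 and 4 were higher in line 12, and none was lower. That is 16.7% and 66.7%, beside 22.2% and 28.3% of all genes. ATG13A, a regulatory subunit listed under its locus AT3G49590, rose in both, with 7.44, 9.36 and 8.53 FPKM in WT, 12.9 and 11.9 in line 5, and 12.9, 11.3 and 13.04 in line 12. Both lines sat at the same height above WT (log2 changes 0.51 and 0.51, SE 0.10 and 0.09, limma adjusted p = 0.00534 and 0.00229). ATG1A, a catalytic subunit, had 14.8, 16.96 and 15.0 FPKM in WT, 17.3 and 15.1 in line 5, and 19.8, 26.0 and 27.6 in line 12. Line 5 had 1 library within the WT range and 1 just above it, and the line 12 libraries were all higher (0.05 and 0.61, adjusted p = 0.781 and 0.00430). The 2 highest ATG1A libraries, line 12 replicates 2 and 3, are those with 2.34% and 7.60% ribosomal RNA. Line 5 replicate 2, with 2.18%, had 15.1 FPKM, within the WT range and below line 5 replicate 1. The part of the ribosomal RNA share in these ATG1A levels was not tested. With the 3 libraries above 2% left out, the line 12 change was 0.33 (adjusted p = 0.0687), with line 12 then represented by 1 library.

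ATG13B went from 3.64 to 4.51 and 5.69 FPKM (log2 changes 0.25 and 0.53, limma adjusted p = 0.0608 and 0.00112) and ATG101, the partner of ATG13, from 17.5 to 20.5 and 20.9 (0.22 and 0.25, adjusted p = 0.0907 and 0.0344). For ATG101 the line 12 call was lost without line 12 replicate 2 (0.0750) or 3 (0.102), or WT replicate 1 (0.108) or 2 (0.0755), and without line 5 replicate 2 line 5 was past the threshold (0.0281). ATG1C and the scaffold gene ATG11 did not pass the test in either line, with means from 10.2 to 11.4 FPKM for ATG1C and from 9.91 to 11.1 FPKM for ATG11. ATG6, the Beclin homologue of the lipid kinase complex, was at 15.4, 14.9 and 14.1 FPKM (-0.04 and -0.11, adjusted p = 0.705 and 0.222).

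**Figure D3:**
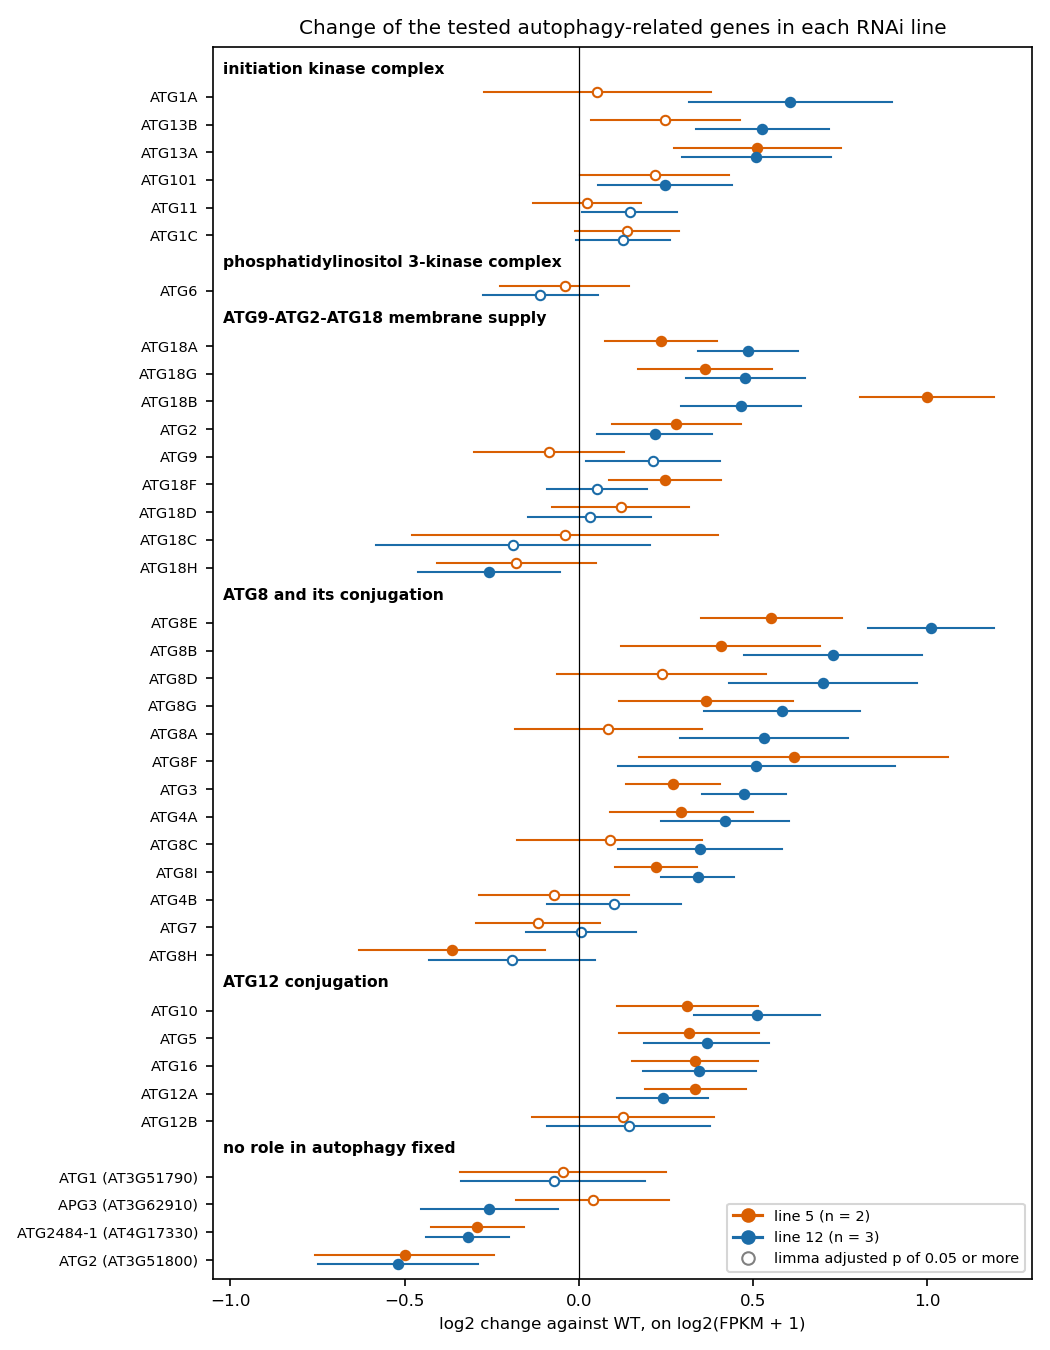
Log2 change against WT, on log2(FPKM + 1), of the 38 tested members in line 5 (orange) and line 12 (blue), grouped by role. Points are limma estimates, filled where the adjusted p is under 0.05, and lines are 95% confidence intervals. ATG8E in line 12 (1.01) and ATG18B in line 5 (0.9996) lie farthest to the right, and AT3G51800 farthest to the left (-0.50 and -0.52).

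In the membrane supply group, the ATG18 genes, which encode lipid-binding WD40 propeller proteins, had different patterns. ATG18B (chromosome 4, 14905097 to 14907645, minus strand) had 6.02, 6.29 and 6.75 FPKM in WT, 14.1 and 13.3 in line 5, and 8.80, 8.67 and 9.998 in line 12. No groups overlapped, and line 5 was the highest. It was the only member called lower in the direct test of line 12 against line 5. The mean was 2.16-fold that of WT in line 5 (log2 change 0.9996 ± 0.08 SE, limma adjusted p = 7.13e-05) and 1.44-fold for line 12 (0.47 ± 0.07 SE, adjusted p = 0.00120). ATG18A had 14.9, 16.1 and 15.2 FPKM in WT, 19.1 and 17.5 in line 5, and 21.4, 21.3 and 23.2 in line 12. Here the order was that of ATG8E (0.23 and 0.48, adjusted p = 0.0262 and 0.000380). ATG18G had 15.0, 13.5 and 14.5 FPKM in WT, 20.1 and 17.4 in line 5, and 19.9, 19.6 and 21.6 in line 12, both lines above WT (0.36 and 0.48, adjusted p = 0.00922 and 0.00102).

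ATG18F rose in line 5 (11.8 to 14.2 FPKM, log2 change 0.25, limma adjusted p = 0.0218) and did not pass the test in line 12 (12.3 FPKM, adjusted p = 0.501). The difference between the lines was not called for it (-0.19, adjusted p = 0.0902). ATG18H had means of 11.9, 10.4 and 9.80 FPKM, and its decrease passed the test in line 12 (-0.26, adjusted p = 0.0370) and not in line 5 (-0.18, adjusted p = 0.175). ATG18C and ATG18D had group means of 4.25 to 4.88 and 2.27 to 2.55 FPKM and did not pass the test. The ATG18C libraries of line 12 were uneven, at 3.55, 5.70 and 3.50 FPKM, and without replicate 2 the change was -0.38 (adjusted p = 0.0345). The lipid transfer gene ATG2 (AT3G19190) went from 8.26 to 10.2 and 9.75 FPKM (0.28 and 0.22, adjusted p = 0.0232 and 0.0316). ATG9, the membrane protein of the carrier vesicles, went from 8.33 to 7.80 and 9.85 FPKM (-0.08 and 0.21, adjusted p = 0.486 and 0.0600, the latter 0.00650 without line 12 replicate 1).

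The line 5 calls of this group were lost without line 5 replicate 1 for ATG18A (limma adjusted p = 0.171), ATG18G (0.0773), ATG18F (0.0661) and ATG2 (0.114), and the ATG18B calls held in both lines without each library in turn. Line 5 calls were also lost for ATG18A without WT replicate 1 (0.0756) or 3 (0.0608), for ATG18F without line 5 replicate 2 (0.109), WT replicate 1 (0.0597) or 3 (0.0553), and for ATG2 without line 5 replicate 2 (0.0730), WT replicate 1 (0.0583) or 2 (0.0515). In line 12 the ATG2 call was lost without any of line 12 replicates 1 to 3 (0.0859, 0.0614, 0.0563), WT replicate 1 (0.0969) or WT replicate 2 (0.0657), and the ATG18H call without line 12 replicate 1 (0.104) or 2 (0.108) or any of WT replicates 1 to 3 (0.0849, 0.0663, 0.0972).

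**Figure D4:**
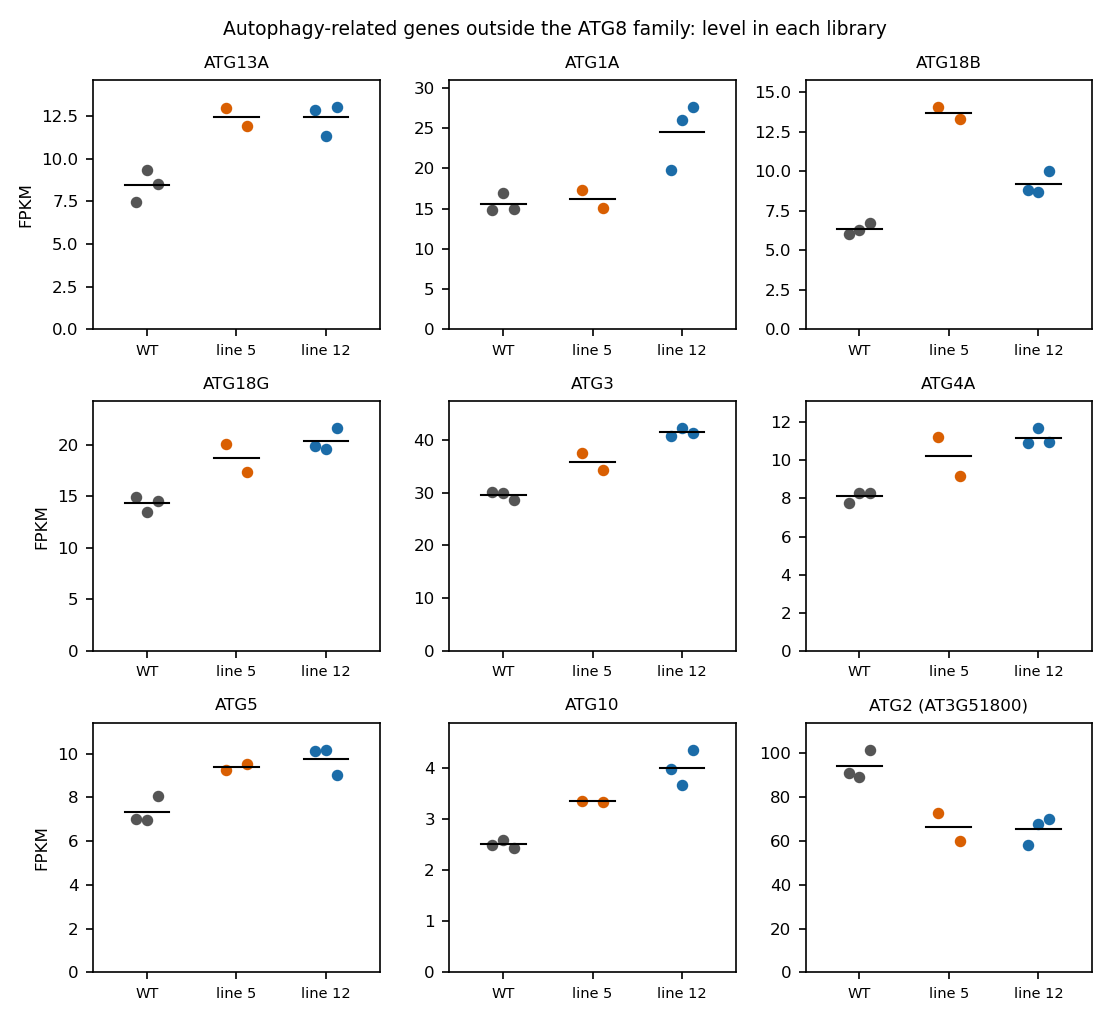
FPKM (y axis, from 0) of 9 members outside the ATG8 family in each library of WT (n = 3), line 5 (n = 2) and line 12 (n = 3). Points are libraries and bars are group means. ATG18B is highest in line 5 (14.1 and 13.3 FPKM), ATG1A is above WT in the 3 line 12 libraries, and AT3G51800 is lower in all RNAi libraries.

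Across the 38 tested genes, every RNAi library was above every WT library for 19 (50%, against 24.1% of all genes) and below for 3 (7.89%, against 24.7%). The lower 3 were ATG18H and 2 of the look-alikes. AT3G51800 (EBP1), a gene known for promoting cell growth and ribosome production and the most abundant member in WT, had 90.9, 89.2 and 101.5 FPKM in WT, 72.7 and 60.0 in line 5, and 58.3, 67.9 and 69.9 in line 12. Its log2 change was -0.50 (SE 0.11, limma adjusted p = 0.00819, or 0.0610 without line 5 replicate 2) and -0.52 (SE 0.10, adjusted p = 0.00295). AT4G17330 had 34.4, 34.9 and 35.8 FPKM in WT, 29.2 and 27.7 in line 5, and 26.8, 27.9 and 29.0 in line 12, lower in both lines by more than its spread (-0.29 and -0.32, adjusted p = 0.00476 and 0.00124). The release factor APG3 was at 30.3, 31.1 and 25.2 FPKM and passed the test in line 12 (-0.26, adjusted p = 0.0329), a call lost without line 12 replicate 2 (0.0562) or 3 (0.102), or WT replicate 1 (0.0651) or 3 (0.0944). AT3G51790, the direct neighbour of AT3G51800, did not pass (8.54, 8.23 and 8.11 FPKM). None of the look-alike genes was called higher in either line.

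Line 12 was set against line 5 in the same fit, which asks whether the lines differ at a like level of ABCE2. Of the 38 members, 6 were higher in line 12 and 1 lower, against 9.07% higher and 9.93% lower of all genes (19% in all). The higher genes were ATG8A, ATG8D, ATG8E, ATG1A (log2 difference 0.55, limma adjusted p = 0.0310), ATG18A (0.25, adjusted p = 0.0414) and ATG3 (0.20, adjusted p = 0.0462), and the lower one was ATG18B (-0.53, adjusted p = 0.00496). The count was 3 without line 12 replicate 2 (15.1% of all genes called), 2 without line 12 replicate 3 (11.9%) and 4 without WT replicate 1 (15.8%). Leaving out either line 5 library, which leaves 1, lowered the count and the share of all genes as well. ATG18B was the only member whose call held without each library in turn. With line 5 replicate 2, line 12 replicate 2 and line 12 replicate 3 (the libraries above 2% ribosomal RNA) left out, the calls were lost. That fit had 1 library in each line, so its spread came from WT alone, and far fewer of all genes were called as well. Estimates moved too. The difference between the lines went from 0.45 to 0.24 for ATG8A and from 0.20 to 0.12 for ATG3. For ATG8D it went from 0.46 to 0.535. The cause of the losses was not tested.

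Several receptors that bring cargo to ATG8 rose in both lines. Of 10 receptor and adaptor genes, 5 were higher and 1 lower in line 5 and 6 were higher and 0 lower in line 12. The shares higher are 50% and 60%, beside 22.2% and 28.3% of all genes. NBR1, the receptor for ubiquitinated aggregates, had 45.4, 51.2 and 48.1 FPKM in WT, 92.2 and 71.6 in line 5, and 147.6, 207.1 and 168.6 in line 12. Its groups were far apart in the order of ATG8E, at 1.70-fold and 3.62-fold of WT (log2 changes 0.74 and 1.82, limma adjusted p = 0.00595 and 2.91e-05), and the lines differed (1.08, adjusted p = 0.00354). EXO70B1, an exocyst subunit carried to the vacuole by autophagy, had 17.7, 19.8 and 21.2 FPKM in WT, 60.1 and 63.3 in line 5, and 42.4, 39.3 and 37.5 in line 12. Its order was that of ATG18B, with line 5 highest (1.61 and 0.99, adjusted p = 1.02e-05 and 3.40e-05). ATI1, an ATG8-interacting protein of the endoplasmic reticulum and plastids, went from 32.6 to 56.6 and 53.9 FPKM (0.78 and 0.71, adjusted p = 0.000729 and 0.000439). TSPO, also among the 5, was low in all groups. Its means were 1.14, 3.30 and 0.377 FPKM, called against WT in line 5 (1.08, adjusted p = 0.0214) and not in line 12 (-0.57, adjusted p = 0.105), and line 12 was below line 5 (-1.65, adjusted p = 0.00929). The gene lower in line 5 was DSK2A, a ubiquitin-binding shuttle (-0.17, adjusted p = 0.0335).

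Among the lipid kinase partners of ATG6, the catalytic gene VPS34 went from 14.2 to 16.8 and 20.9 FPKM (log2 changes 0.23 and 0.53, limma adjusted p = 0.0197 and 0.000152) and VPS15 from 7.77 to 9.38 and 9.38 (0.24 and 0.24, adjusted p = 0.0251 and 0.0126), while VPS38 passed in neither. ATG14A, a subunit of the same complex that the rule did not find, went from 4.53 to 7.02 and 7.05 FPKM (0.54 and 0.54, adjusted p = 0.00376 and 0.00150), and its paralogue ATG14B from 19.1 to 20.2 and 22.1 (adjusted p = 0.272 and 0.00798). The kinase genes ATG1B and ATG1T, also outside the rule, were not called in either line. Of 8 trafficking and fusion genes, 2 were higher and 1 lower in line 5 and 4 higher and 1 lower in line 12. The line 5 shares, 25% and 12.5%, are near or below those of all genes (22.2% and 22.3%), and the line 12 shares are 50% and 12.5%, beside 28.3% and 27.7%. Among them the ESCRT-associated FREE1 went from 30.4 to 35.5 and 40.3 FPKM (adjusted p = 0.0220 and 0.000570), CFS1 from 22.8 to 27.6 and 29.0 (adjusted p = 0.0293 and 0.00544) and the deubiquitinase gene AMSH3 from 7.88 to 8.88 and 9.87 (adjusted p = 0.133 and 0.00716).

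Of 6 vacuolar protease genes, 0 were higher and 1 lower in line 5 (0% and 16.7%, beside 22.2% and 22.3% of all genes). The lower gene was GAMMA-VPE (-0.63, limma adjusted p = 0.00303). In line 12, 2 were higher and 0 lower (33.3% and 0%, beside 28.3% and 27.7% of all genes). RD21A, the most abundant, went from 397.8 to 348.8 and 478.5 FPKM (adjusted p = 0.102 and 0.0189), and AALP from 193.8 to 195.5 and 218.8 (adjusted p = 0.916 and 0.413). Log2 changes over this list in line 12 ranged from -0.019 to 1.006. Against line 5, 3 of the 6 were higher in line 12 and 0 lower (50% and 0%, beside 9.07% and 9.93% of all genes). Of 8 genes for ubiquitin ligases and adaptors that act on ATG proteins, 2 were higher in each line, or 25%, which is about the share of all genes (22.2% and 28.3%). SINAT5 went from 3.35 to 4.99 and 4.73 FPKM (adjusted p = 0.00528 and 0.00460), SINAT3 from 16.5 to 18.5 and 21.5 (adjusted p = 0.142 and 0.00320) and SINAT4 from 10.7 to 13.01 and 11.3 (adjusted p = 0.0207 and 0.319).

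Of 6 genes of the TOR and SnRK1 kinases, 0 were higher and 1 lower in line 5 (0% and 16.7%, beside 22.2% and 22.3% of all genes). The lower gene was RAPTOR1B (-0.16, limma adjusted p = 0.0486). In line 12, 2 were higher and 1 lower (33.3% and 16.7%, beside 28.3% and 27.7% of all genes). TAP46, a phosphatase subunit in TOR signalling, went from 17.9 to 19.1 and 22.2 FPKM (adjusted p = 0.309 and 0.00329), the TOR complex gene LST8-1 from 34.5 to 37.4 and 40.2 (adjusted p = 0.225 and 0.0190), and the SnRK1 catalytic gene KIN11 from 24.2 to 21.8 and 20.7 (adjusted p = 0.0882 and 0.0107). TOR itself passed in neither line (adjusted p = 0.0695 and 0.848).

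Of 6 transcription factor genes reported to bind ATG promoters, 3 were higher and 1 lower in line 5 and 4 higher and 1 lower in line 12. The shares higher are 50% and 66.7%, beside 22.2% and 28.3% of all genes. WRKY33, known from pathogen responses, had 11.4, 13.1 and 12.8 FPKM in WT, 180.0 and 158.1 in line 5, and 100.5, 105.2 and 108.0 in line 12 (log2 changes 3.66 and 2.97, limma adjusted p = 1.43e-06 and 5.52e-07). The clock gene TOC1 went from 4.82 to 14.2 and 16.9 FPKM (1.39 and 1.61, adjusted p = 3.94e-05 and 8.61e-06). HY5, a light-response factor reported to repress ATG genes, fell from 10.8 to 4.86 and 5.73 FPKM (-1.005 and -0.81, adjusted p = 0.000129 and 0.000141). Whether any of these factors acted on the ATG genes in these seedlings was not tested.

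**Figure D5:**
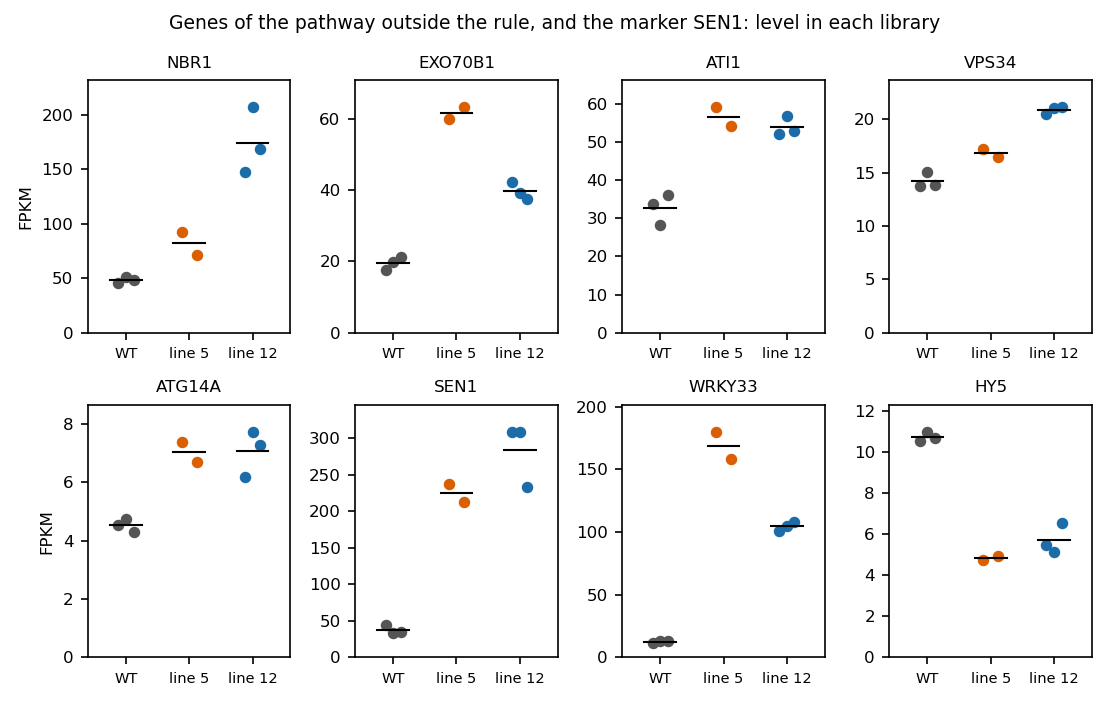
FPKM (y axis, from 0) of 7 pathway genes outside the rule and of SEN1 in each library of WT (n = 3), line 5 (n = 2) and line 12 (n = 3). Points are libraries and bars are group means. NBR1 is highest in line 12 (147.6 to 207.1 FPKM), EXO70B1 and WRKY33 are highest in line 5, and HY5 is lower in every RNAi library.

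The promoters of ATG8E and ATG18B are shown because these genes changed most, each in another line. Both are the 250 bases before the annotated gene start in RefSeq TAIR10.1, on the gene's strand, 5′ to 3′, at chr2:18624014-18624263 (plus strand) and chr4:14907646-14907895 (minus strand). Capitals mark the motifs searched on both strands: the W-box of WRKY factors (TTGACC or TTGACT) and the core of the TGA factor site (TGACG). No matches in them share a base.
ATG8E: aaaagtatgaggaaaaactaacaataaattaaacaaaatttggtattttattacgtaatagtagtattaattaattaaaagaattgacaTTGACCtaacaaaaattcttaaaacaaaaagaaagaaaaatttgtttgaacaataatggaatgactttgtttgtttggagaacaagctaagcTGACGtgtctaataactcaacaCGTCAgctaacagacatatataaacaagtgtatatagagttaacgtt
ATG18B: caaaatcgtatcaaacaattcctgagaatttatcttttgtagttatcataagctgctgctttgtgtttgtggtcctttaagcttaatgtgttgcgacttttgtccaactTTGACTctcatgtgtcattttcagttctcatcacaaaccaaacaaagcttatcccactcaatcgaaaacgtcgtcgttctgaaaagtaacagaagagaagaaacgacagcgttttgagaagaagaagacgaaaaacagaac
The ATG8E window holds 1 W-box, from -161 to -156 relative to the start, and 2 TGA cores, from -69 to -65 and from -47 to -43. The ATG18B window holds 1 W-box, from -141 to -136, and no TGA core. Among the 35 members with a role, 5 promoters held a W-box (14.3%, against 28.4% of 27413 protein-coding genes), 10 a TGA core (28.6% against 18.6%), 3 a G-box (CACGTG, 8.57% against 6.48%) and 1 an evening element (AAATATCT, 2.86% against 4.79%). A match to letters is not a binding site, and no binding was measured.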

How the data were processed

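The deposited gene table was used as the authors made it: 1 value per gene for each of 8 libraries. No header names the unit. Values per library summed to between 590189 and 630761, which with the tools named was read as FPKM, so read counts and depth are unknown. Per the submitters' processing notes, HISAT2 and StringTie were used with genome build TAIR10; per the labels' protocols, TruSeq libraries were made from 1.5 µg of total RNA. All 40 members have the same coordinates in RefSeq TAIR10.1.

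From the deposited FPKM, limma 3.58.1 (R 4.3.3; lmFit, and eBayes with a mean trend) was run on log2(FPKM + 1) for the 19395 genes that reached 1 FPKM in 2 or more libraries, as 1 fit of 3 groups. Adjusted p-values are Benjamini-Hochberg over all genes tested, with a threshold of 0.05. Log2 changes are on this scale, which understates changes of low genes. Fold values are ratios of mean FPKM. The script was tested on simulated data.

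Per-library values are given for members called in the same direction in both lines (up to 14, by the smaller change), members called between the lines, the 3 most abundant, and the ATG8 genes. From other lists, up to 3 called genes are named by the size of their change averaged over both lines, or the 2 most abundant; DSK2A, TSPO, GAMMA-VPE, RAPTOR1B and the uncalled genes beside them were added after their values were seen. Members and lists were chosen with earlier results of these data known. A planned permutation test of the summed ATG8 level was not run, since the sum is over chosen genes. Same-numbered libraries did not deviate together, so the numbers were not used as pairs. Alternatives covered the filter, pseudocount, scaling, groups in the fit, replicate block, libraries above 2% ribosomal RNA, and each library left out.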

Additional observations from a re-analysis of the deposited data

Results flagged for a closer look

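These 7 members differed between the RNAi lines by a direct test of line 12 against line 5 (limma adjusted p under 0.05). Of the 38 tested members, 15.8% were higher in line 12 and 2.63% lower. Among all genes 9.07% were higher and 9.93% lower, or 19% in all, so the count is near that share. On the log2 scale, line 12 was higher for ATG1A (0.55), ATG8D (0.46), ATG8E (0.46), ATG8A (0.45), ATG18A (0.25) and ATG3 (0.20), and lower for ATG18B (-0.53). The ATG18B difference kept its call when any 1 library was left out; the others lost theirs in 1 (ATG8E), 4 (ATG8A), 5 (ATG1A), 6 (ATG8D) or all 8 (ATG18A and ATG3) of the 8 such fits. ATG8A shares 27 bases with AT4G21990 on the opposite strand, whose means were 49.8, 24.97 and 60.5 FPKM in WT, line 5 and line 12. The part of that overlap, and of the ribosomal RNA share, in these differences was not tested.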

How the results depend on the processing

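No called result changed direction under any alternative. The counts of called members in line 12 (26) and in the mean of both lines (25) stayed within 1.5 times under each alternative. The shares of all genes called (56% and 56.1%) were lower in each fit that left libraries out. In line 5 the count of 20 (44.6% of all genes called) was 12 with the replicate block (32.8% of all genes), 12 without the libraries above 2% ribosomal RNA (35%), and 7 to 20 with 1 library left out. For line 12 against line 5 the count of 7 (19% of all genes) was 1 with the replicate block (7.94%), 3 with the fit on those groups only (13.2%), 0 without the libraries above 2% ribosomal RNA (2.27%), and 1 to 6 with 1 library left out. A fit that leaves a group with 1 library assumes that this library varies like the others, and the cause of the losses was not tested. Deviations of same-numbered libraries correlated between -0.298 and 0.163, so the block has no support in the data as a pairing. Centring each library on its median ended the call of ATG4A (adjusted p = 0.0527) and ATG18A (0.0547) in line 5, ATG101 (0.0734) and ATG2 (0.0758) in line 12, and ATG3 (0.0545) between the lines. Rescaling without ribosomal RNA and organelle genes ended those of APG3 (0.0507) and ATG18H (0.122) in line 12 and ATG18A (0.0555) between the lines. When the 3 libraries rich in ribosomal RNA were left out, so that each line had 1 library, the line 12 calls of ATG8A (log2 change 0.35, adjusted p = 0.0941), ATG8C (0.0603), ATG8F (0.128), ATG12A (0.0612), ATG2 (0.149), ATG101 (0.207) and APG3 (0.295) were lost as well as that of ATG1A. With no read counts, what depth allows for genes near 2 FPKM, such as ATG10 and ATG18D, could not be set.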
